A study of Mus musculus with 4 samples.

Results

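The redox, glutathione and iron handling genes were a chosen list of 34 genes, found by symbol among the 50600 genes of the count tables of mouse regulatory T cells, and all 34 were present. The list holds a redox sensor with its transcription factor, the makers and users of glutathione, the thioredoxin system with the peroxiredoxins, the superoxide dismutases and catalase, the haem oxygenases with a quinone reductase, and the genes that take up, store, export and sense iron. The rule names genes by function and uses no measured value, but the list was drawn up with earlier results of these data known. RNA came from a single group of 4 libraries of C57BL/6NJ primary regulatory T cells, the Foxp3-dependent CD4+ T cells that hold immune responses in check. Neither a genetic change nor a control group is named in the labels, and the file headers carry the words activated and sorted with a time of 72 h. Age is not given. The labels call the assay total RNA-seq but name a library protocol for polyadenylated RNA, so which transcripts the levels are a share of is uncertain. The 4 biological replicates share a donor record and separate cultures are not stated, so spread between libraries may be partly technical.

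Cells that divide and respire make superoxide and hydrogen peroxide, and remove them by linked enzymes. Superoxide dismutases turn superoxide into peroxide, which catalase, the peroxiredoxins and the glutathione peroxidases then destroy. Most peroxiredoxins draw electrons from thioredoxin and the glutathione peroxidases from glutathione, and thioredoxin and glutathione are both recharged with NADPH. Iron is needed for DNA synthesis and respiration, but free iron turns peroxide into hydroxyl radical, so uptake, storage and export are held in balance. In activated T cells, glutathione synthesis and transferrin receptor induction are known to accompany growth.

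Libraries held 32648138 to 94983494 counts. Levels are given in TPM, the share of transcripts that a gene takes after its counts are divided by its exon length, so that genes can be compared. A gene counted as expressed where no library fell under 1 TPM. All 5 markers of regulatory T cells were expressed, with Foxp3 at 433 to 495 TPM. Of the markers of other cells, 0 of 6 for neutrophils, 1 of 5 for B cells, 1 of 6 for dendritic cells, 2 of 6 for CD8 T and NK cells, 2 of 8 for erythroid cells and 3 of 10 for monocytes and macrophages were expressed, and the summed level of each of these lists was at most 16.9 TPM in any library. In bulk RNA, fewer cells of a type and less RNA per cell cannot be told apart. The libraries stood apart in sex-linked RNA: Xist measured 312, 331, 0.539 and 2.38 TPM across replicates 1 to 4, and the Y-linked Eif2s3y 0.083, 0.132, 49.3 and 67.7 TPM. The shared donor record therefore cannot stand for 1 animal. Replicate 1 also held the most Gm42418, a locus carrying ribosomal RNA sequence, at 11900 TPM against 1560 to 4340 TPM in the others. Of the erythroid markers, the erythropoietin receptor gene Epor varied between libraries, at 2.33, 10.53, 9.54 and 7.96 TPM (edgeR adjusted p = 0.00943, and 1 without replicate 1 or 0.0681 without replicate 3). The part of these differences in the values below was not tested.

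Most of the list was expressed: 31 of 34 members reached 1 TPM in every library, against 23.9% of all genes in the tables. The exceptions were Slc7a11, Nqo1 and Slc40a1. All 34 members have a protein-coding transcript. Many other genes in the tables do not, so the shares expressed are of unlike sets. Together the 34 genes took 8134 ± 116 TPM (SD, n = 4), which is 0.813% of all TPM. Their median level was 79.5 TPM.

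**Figure D1:**
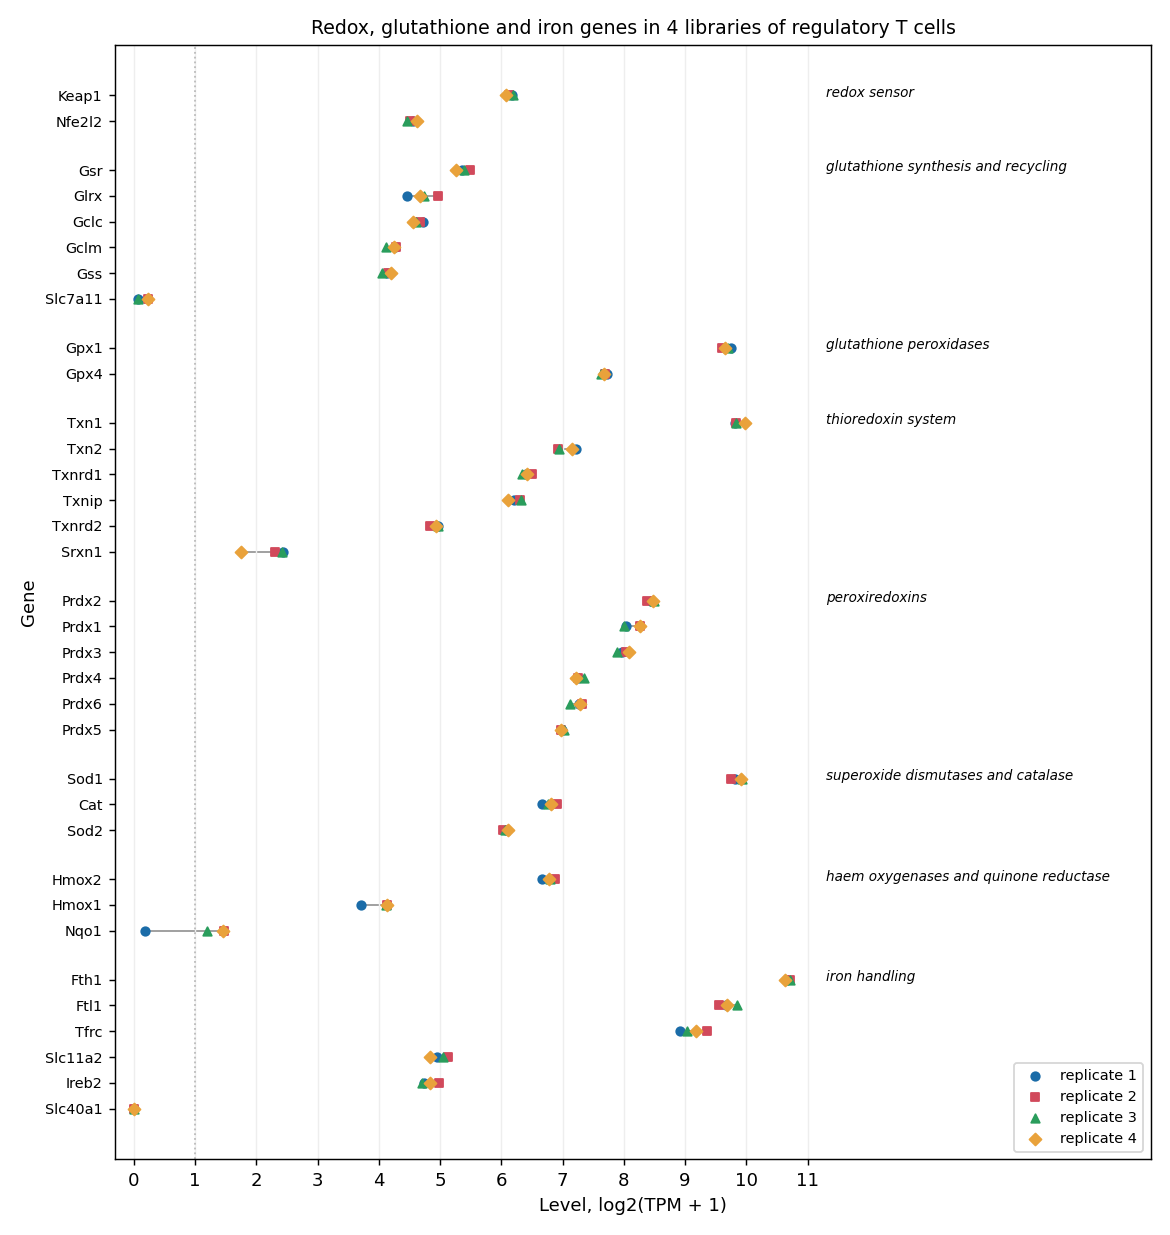
Level of each of the 34 genes as log2(TPM + 1) on the horizontal axis, by system, with a marker for each of the 4 libraries; the dotted line is 1 TPM. Ferritin heavy chain Fth1 lies highest at 1591 to 1688 TPM with the exon length counted, and Slc40a1 lies at 0 in all 4 libraries. With the principal transcript length, which exceeds the exon bases counted, Fth1 is at 662 TPM, below Ftl1 and Gpx1.

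The iron handling genes had the highest summed level and the redox sensor pair the lowest. Iron handling genes summed to 3090 ± 90.1 TPM, the peroxiredoxins to 1318 ± 37.9 TPM, the thioredoxin system to 1260 ± 53.2 TPM, superoxide dismutases and catalase to 1103 ± 51.6 TPM and the glutathione peroxidases to 1022 ± 38.4 TPM (SD, n = 4 each). With the length of each gene's principal transcript the iron handling sum was 2024 TPM. That sum understates Fth1, whose principal transcript exceeds the exon bases counted, and every TPM is also rescaled when all lengths change. The genes that make and recycle glutathione, at 124 ± 6.52 TPM, the haem oxygenases with Nqo1, at 126 ± 9.29 TPM, and the redox sensor pair, at 92.0 ± 1.96 TPM, were low beside them. These sums differ in how many genes they hold. They group genes by family and not by the electron donor of each enzyme. The 12 genes of the thioredoxin system and the peroxiredoxins together stood at 2.25 ± 0.122 times the summed TPM of the 8 glutathione genes (SD, n = 4), with 2.13, 2.31, 2.17 and 2.39 times in replicates 1 to 4, a description without a test.

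**Figure D2:**
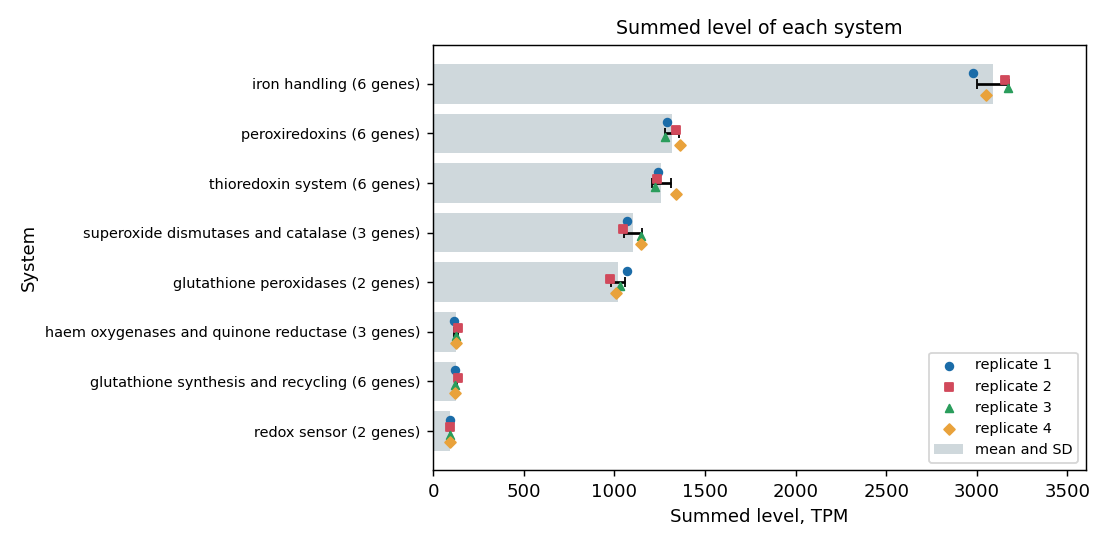
Summed TPM of the genes of each system, with bars for the mean, whiskers for the SD over 4 libraries and a marker for each library. Iron handling stands at 2980 to 3170 TPM, and the redox sensor pair at 90.1 to 94.0 TPM.

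The first comparison was between members with related roles within each library, for 14 pairs. Differences were taken on the log2(TPM + 1) scale. The exact permutation test flipped the signs of the 4 differences and was two-sided. All 14 pairs kept a single direction in 4 of 4 libraries, and each had p = 0.12 before and after Benjamini-Hochberg adjustment over the 14 pairs, the smallest that 4 libraries allow in this exact test. Such differences also carry the length assigned to each gene, so each pair was recomputed with the length of the principal transcript in GENCODE M21, a step added after the levels had been seen. Where that changed the direction, or the ratio by over 1.5 times, it is said beside the pair.

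**Figure D3:**
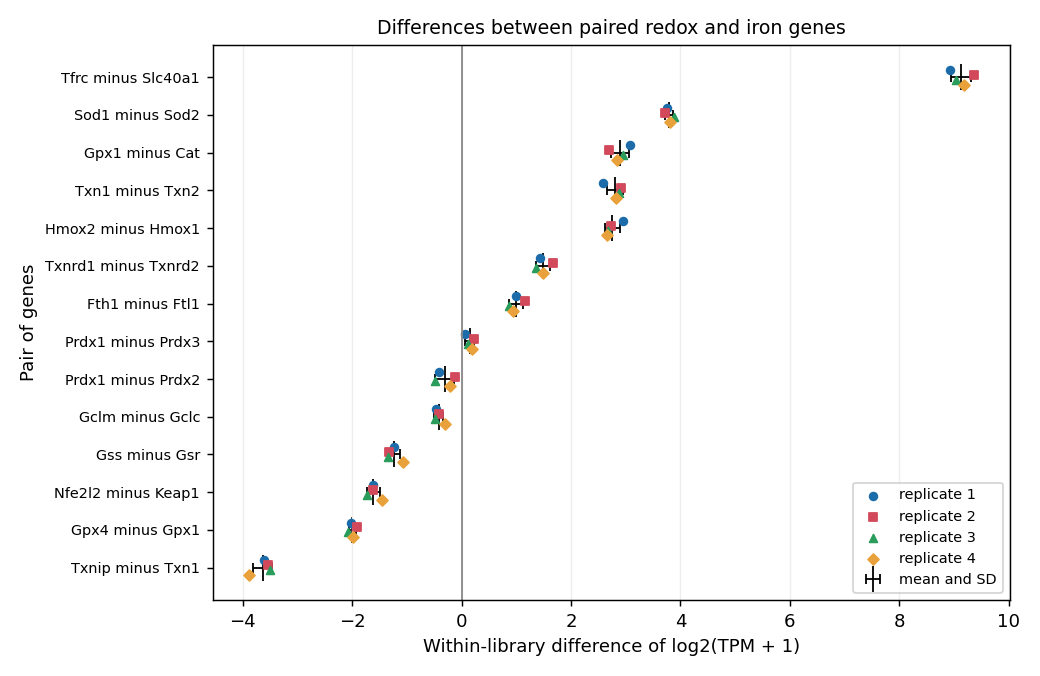
Within-library differences of log2(TPM + 1) for the 14 pairs, named as the first gene minus the second, with a marker for each library and a bar for the mean and SD. Tfrc minus Slc40a1 lies highest at 9.12, and Txnip minus Txn1 lowest at -3.63.

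Nfe2l2 encodes NRF2, the transcription factor that drives many antioxidant genes, and Keap1 the adaptor that senses oxidants and sends NRF2 for degradation. Nfe2l2 measured 22.5, 21.7, 21 and 23.6 TPM in replicates 1 to 4, and Keap1 71.5, 68.8, 72.2 and 66.5 TPM. The repressor lay above the factor in every library, and the difference, Nfe2l2 minus Keap1, was -1.61 ± 0.12 (log2, SD, n = 4). NRF2 protein is controlled by its stability, which RNA levels do not show.

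NRF2 binds antioxidant response elements, so the promoters were searched for TGACNNNGC on both strands, from 250 bases before to 50 bases after each RefSeq start in GRCm38.p6. A match was found in 6 of the 28 members with an entry there (21.4%), against 14% of the 27025 genes listed. Per promoter the shares were closer, at 15.8% of the members' 38 against 12.4% of all 32851. The 6 genes were Gclm, Nfe2l2, Prdx1, Sod1, Srxn1 and Txnrd1. They ranged in level from Sod1 at 927 ± 52.7 TPM to Srxn1 at 3.77 ± 0.958 TPM (SD, n = 4). The following 3, of genes that NRF2 is known to induce, are shown because the same letters stand near the starts of genes of very different level, after the start in Srxn1; capitals mark the match, here on the opposite strand.
Prdx1, chr4:116685456-116685484, plus strand: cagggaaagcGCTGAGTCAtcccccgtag
Txnrd1, chr10:82859104-82859132, plus strand: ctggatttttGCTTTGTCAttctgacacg
Srxn1, chr2:152105542-152105570, plus strand: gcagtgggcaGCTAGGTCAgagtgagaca
Prdx1 averaged 283 TPM, Txnrd1 84.5 TPM and Srxn1 3.77 TPM. A match describes letters and shows neither binding nor an effect on level.

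Glutathione begins with cystine, which the xCT transporter Slc7a11 imports. Slc7a11 was almost silent, with 10, 53, 20 and 24 counts in replicates 1 to 4, or 0.0496, 0.174, 0.0487 and 0.172 TPM. Replicates 2 and 4 were high and replicates 1 and 3 low, and the exact Poisson 95% intervals, which cover counting error only, were 0.0238 to 0.0912, 0.13 to 0.228, 0.0297 to 0.0752 and 0.110 to 0.255 TPM. Its heavy chain partner Slc3a2, which also serves other amino acid transporters, measured 204.6 to 225.5 TPM. The 2 subunits of glutamate-cysteine ligase, the rate-limiting enzyme, were close together: catalytic Gclc measured 25.4, 24.6, 23.3 and 22.5 TPM and modifier Gclm 18.1, 18.4, 16.4 and 18.1 TPM. Gclm minus Gclc was -0.41 ± 0.08 (log2, SD, n = 4), but in CPM, without length, it was 0.30 (log2), and Gclm has 6291 exon bases against 3766 for Gclc. Another gene on the same strand overlaps 3.88% of the Gclm exon bases, where reads may be shared. Glutathione synthetase Gss averaged 16.5 ± 0.714 TPM and glutathione reductase Gsr, which regenerates the reduced form, 40.5 ± 2.61 TPM (SD, n = 4). Gss minus Gsr was -1.24 ± 0.12 (log2, SD, n = 4), and turned to 0.25 with the principal transcript length, at which Gss averaged 34.6 TPM, so the order of these genes rests on the length used. Glutaredoxin Glrx, which removes glutathione from proteins, measured 21.1, 30.3, 25.6 and 24.6 TPM.

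The glutathione peroxidases were far above the genes that supply their substrate. Gpx1, which reduces soluble peroxides, measured 858, 773, 834 and 806 TPM. Gpx4, which reduces lipid peroxides in membranes and so holds off ferroptosis, measured 211, 205, 197 and 204 TPM. Gpx4 minus Gpx1 was -1.99 ± 0.07 (log2, SD, n = 4), a ratio of 0.25. Of the 50-base words of Gpx4 transcripts, 34.7% also occur in transcripts of other loci, pseudogenes among them, so its count and its ratio to Gpx1 are uncertain.

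The thioredoxin system was led by Txn1, the cytosolic thioredoxin, at 902, 916, 906 and 1012 TPM. Replicate 4 was highest and the others lay close together. Txn2, the mitochondrial form, measured 149, 120, 122 and 142 TPM, with replicates 1 and 4 above replicates 2 and 3. Txn1 minus Txn2 was 2.81 ± 0.15 (log2, SD, n = 4), or a ratio of 7.06 ± 0.696, and the ratio was 3.44 ± 0.339 with the principal transcript length. The selenoenzymes that reduce thioredoxin followed the same order: cytosolic Txnrd1 measured 83.4, 90.01, 79.8 and 84.9 TPM and mitochondrial Txnrd2 30.1, 27.7, 30.3 and 29.6 TPM. Txnrd1 minus Txnrd2 was 1.49 ± 0.13 (log2, SD, n = 4). Txnip, the thioredoxin-binding inhibitor that also limits glucose uptake, averaged 74.5 ± 5.29 TPM, and Txnip minus Txn1 was -3.63 ± 0.17 (log2, SD, n = 4). Sulfiredoxin Srxn1, which repairs overoxidized peroxiredoxins, was the lowest of the system, with 181, 243, 360 and 67 counts or 4.43, 3.94, 4.33 and 2.36 TPM, lowest in replicate 4.

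All 6 peroxiredoxins lay above 100 TPM in every library. Cytosolic Prdx2 measured 348, 333, 359 and 356 TPM and cytosolic Prdx1 261, 307, 257 and 307 TPM. Prdx1 minus Prdx2 was -0.31 ± 0.17 (log2, SD, n = 4). Of Prdx1 words, 8.81% occur at other loci, so small differences between Prdx1 and other peroxiredoxins are uncertain. Mitochondrial Prdx3 measured 250, 261, 237 and 269.8 TPM, and Prdx1 minus Prdx3 was 0.15 ± 0.08 (log2, SD, n = 4), so the ranges of Prdx1 and Prdx3 overlapped across libraries although Prdx1 was higher within each. Prdx4, the secretory pathway form, averaged 153 ± 6.10 TPM, Prdx6, the peroxiredoxin that also has phospholipase activity, 151 ± 9.18 TPM, and Prdx5, found in mitochondria, peroxisomes and cytosol, 127 ± 2.04 TPM (SD, n = 4). Prdx4 and Prdx6 did not differ beyond their spread. Prdx5 had the lowest coefficient of variation of the expressed members, 1.61%. With the principal transcript length Prdx3 averaged 177 TPM, below Prdx4 at 226 TPM and Prdx6 at 211 TPM, so the order after Prdx2 and Prdx1 depends on the length.

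Sod1, the copper and zinc superoxide dismutase of the cytosol, measured 903, 865, 976 and 966 TPM, and Sod2, the manganese enzyme of mitochondria, 66.3, 64.5, 65.4 and 68.0 TPM. Sod1 minus Sod2 was 3.79 ± 0.07 (log2, SD, n = 4), or a ratio of 14.03 ± 0.676. With the principal transcript length the ratio was 21.7 ± 1.04 and Sod2 averaged 29.9 TPM. The principal Sod2 transcript, at 5861 bases, is longer than the 3824 exon bases counted, which lowers Sod2 and raises this ratio by construction. For Sod2, 21% of words occur at other loci. Catalase, the peroxisomal enzyme that splits hydrogen peroxide, measured 100.4, 119, 107 and 112 TPM for Cat. Gpx1 minus Cat was 2.89 ± 0.17 (log2, SD, n = 4), a ratio of 7.504 ± 0.871.

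Haem oxygenases break haem into biliverdin, carbon monoxide and iron. The constitutive Hmox2 measured 100.4, 116, 110.3 and 109 TPM and the stress-inducible Hmox1 12.2, 16.58, 16.4 and 16.5 TPM. Hmox1 was lowest in replicate 1 and nearly level in the other 3 libraries. Hmox2 minus Hmox1 was 2.75 ± 0.13 (log2, SD, n = 4). Nqo1, a quinone reductase widely used as a reporter of NRF2 activity, had 3, 60, 59 and 27 counts in replicates 1 to 4, or 0.133, 1.77, 1.29 and 1.73 TPM. Its exact Poisson 95% interval in replicate 1, 0.0275 to 0.390 TPM, lay below those of the others, the lowest of which began at 0.980 TPM; the intervals cover counting error only.

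Iron enters through the transferrin receptor and leaves the endosome by the transporter Slc11a2, is stored in ferritin, and leaves the cell by ferroportin, encoded by Slc40a1. Iron regulatory proteins, one of them encoded by Ireb2, bind hairpins called iron-responsive elements when iron is scarce. Bound in a 5′ UTR they block translation, and bound in the 3′ UTR of Tfrc they protect the RNA. Annotated UTRs were searched for CNNNNNCAGTGN, with any last base but G, closed by 5 further paired bases (G-T pairs allowed). Such hairpins were found in 4 of 34 members (11.8%), against 0.540% of 21655 genes with a protein-coding transcript. They are shown because they sit in the most and the least abundant RNAs of the iron group; capitals mark the CAGTG of the loop, and sequences run along the transcript in GRCm38.
Fth1 5′ UTR, chr19:9982732-9982760, plus strand: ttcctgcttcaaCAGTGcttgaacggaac
Ftl1 5′ UTR, chr7:45459779-45459807, minus strand: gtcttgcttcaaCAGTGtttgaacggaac
Slc40a1 5′ UTR, chr1:45925465-45925493, minus strand: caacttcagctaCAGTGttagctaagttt
Tfrc 3′ UTR, chr16:32631219-32631247, plus strand: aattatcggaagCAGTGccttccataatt
Tfrc 3′ UTR, chr16:32631598-32631626, plus strand: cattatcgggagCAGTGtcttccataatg
Tfrc 3′ UTR, chr16:32631663-32631691, plus strand: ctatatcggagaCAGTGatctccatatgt
Tfrc 3′ UTR, chr16:32631710-32631738, plus strand: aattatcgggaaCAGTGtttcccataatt
Genes known to carry such elements, Tfrc among them, were on the list by choice, so the 11.8% share is a description without a test. Tfrc carried 4 of the hairpins, and Fth1, Ftl1 and Slc40a1 carried 1 each. A stem with a bulge or mismatch within the paired bases would be missed, so these and other members may carry further elements. The ferritin hairpins act on translation, so RNA levels do not report ferritin protein.

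Ferritin heavy chain Fth1, which oxidizes iron for storage, measured 1624, 1688, 1675 and 1591 TPM and ranked 57 of 12114 expressed genes. With the principal transcript length it averaged 662 ± 19.3 TPM (SD, n = 4), below Ftl1 at 795 TPM and Gpx1 at 763 TPM, so its level and rank rest on the length used. Ferritin light chain Ftl1 measured 817, 751, 917 and 826 TPM, lowest in replicate 2 and highest in replicate 3. Fth1 minus Ftl1 was 0.99 ± 0.13 (log2, SD, n = 4), but turned to -0.26 with the principal transcript length. The principal Fth1 transcript in M21, at 1494 bases, is longer than the 866 exon bases counted. Reads on the added bases were not counted, so the principal transcript length understates Fth1 and lowers Fth1 minus Ftl1 by construction. Of Ftl1 words, 48.2% occur at other loci. Another gene on its strand overlaps 8.13% of the Ftl1 exon bases, and the order of the chains is uncertain. The transferrin receptor gene Tfrc, on chr16:32608920-32632794 in mm10, measured 484, 654, 520.3 and 580 TPM on 36047 to 94972 counts, lowest in replicate 1 and highest in replicate 2.

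Slc40a1, on chr1:45908068-45926523, had 0 counts in all 4 libraries. With the floor at 3 counts per library, this allows up to 0.0230, 0.0152, 0.0113 and 0.0332 TPM in replicates 1 to 4, and Tfrc was at least 17470-fold higher in every library with the exon lengths counted, or at least 8280-fold with the principal transcript lengths. No other gene on its strand overlapped its exons, and none of its 50-base words occurred at other loci. Macrophages, which recycle iron, are known for ferroportin; of 10 of their markers Cd68, Vcam1 and Adgre1 were expressed, at means of 7.45, 3.15 and 1.75 TPM, and Fcgr1, Marco and Spic had no count. Slc11a2 measured 29.9, 33.9, 32.2 and 27.5 TPM and Ireb2 25.7, 30.5, 25.1 and 27.4 TPM.

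The second comparison asked which members varied between libraries more than their level would give. In the goodness-of-fit test of edgeR with Benjamini-Hochberg adjustment, 0 of the 32 members tested did at an adjusted p under 0.05, against 0.378% of the 13478 genes tested (51 genes). At an unadjusted p under 0.05 there were 2 of 32 (6.25%), against 5.97% of all genes tested, which were Txn2, with an edgeR adjusted p of 0.722, and Slc7a11, with an edgeR adjusted p of 0.766. With DESeq2's dispersion trend it was also 0 of 32 (0.445% of all genes), and by limma 0 of 32 (0.853% of all genes). At an unadjusted p under 0.05 these gave 2 members (6.25%, against 5.74% of all genes) and 3 members (9.38%, against 8.44%). A share of 0.378% of 32 genes is less than 1 gene, so both counts are near the background. Nqo1 and Slc40a1 had too few counts for the test. With no filter on low counts Nqo1 entered it, with an edgeR adjusted p of 1 (unadjusted p = 0.0788).

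The range between the highest and the lowest library was 0.185 (log2 CPM) in the median of the 32 members and 0.306 in that of all 13478 genes tested. The members were also more abundant, at a median of 86.0 CPM against 27.3 CPM, and their median biological coefficient of variation was 0.0776 against 0.098. The part of abundance in the narrower range was not tested. Among the 32 members tested, Slc7a11 was the one whose range exceeded 1, at 1.65 (3.12%, against 12.1% of all genes tested). Nqo1, at 0.133 to 1.77 TPM, was not among those tested. Of the tested members, Srxn1 followed Slc7a11 at 0.94, then Glrx at 0.44, Hmox1 at 0.42 and Txn2 at 0.39. Replicate 1 was the highest library for 10 of 32 members (31.2%), against 30.3% of all genes, and the lowest for 5 (15.6%), against 30.1%. Replicate 2 was the lowest for 11 (34.4%), against 28.9% of all genes. The median deviation of the members lay between -0.01 and 0.02 in every library.

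**Figure D4:**
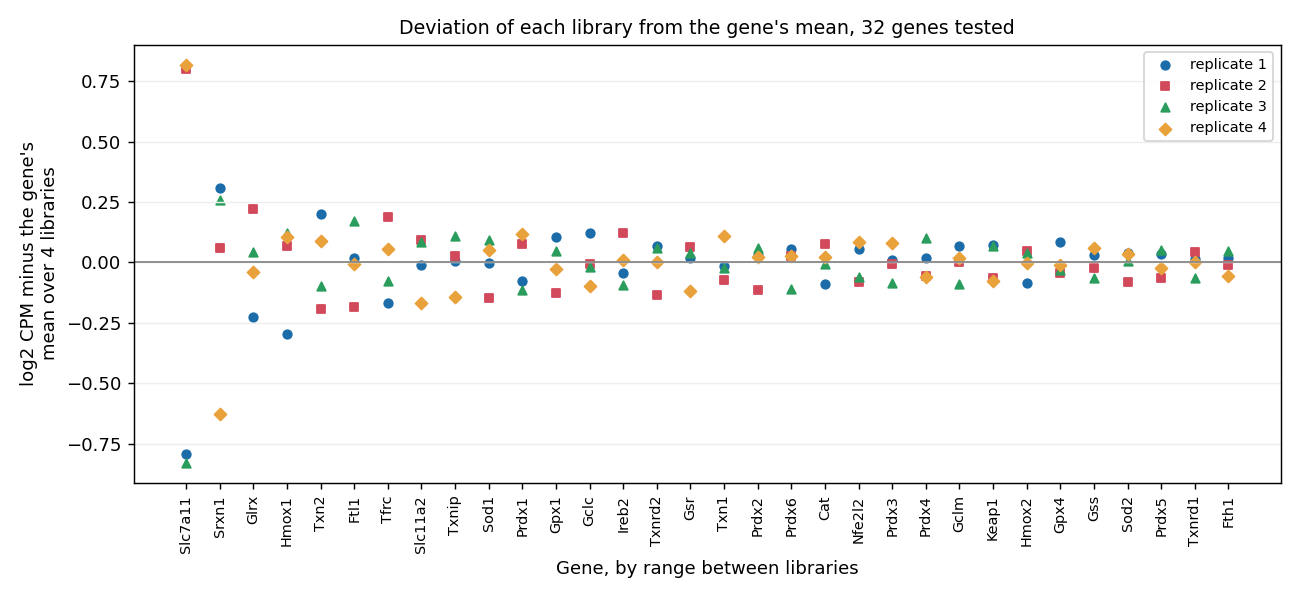
Deviation of log2 CPM in each library from the gene's mean over 4 libraries, for the 32 genes tested, ordered by their range. Slc7a11 spans 1.65 and Srxn1 0.94, while 0.185 is the median range.

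The wider pathway was described from 11 further lists of 112 genes. Of these, 96 were expressed (85.7%, against 23.9% of all genes, with those lacking a protein-coding transcript included). Between libraries, 1 of the 98 tested varied beyond the trend (edgeR adjusted p under 0.05), against 0.378% of all genes tested. A single gene is too few to set apart from that share. That gene was Mt1, a metallothionein that binds zinc and other metals, at 156, 116, 170 and 107 TPM (edgeR adjusted p = 0.00634). Replicates 1 and 3 were high and 2 and 4 low. Its neighbour Mt2 ran the same way at 126, 89.7, 119 and 82.3 TPM without passing (edgeR adjusted p = 0.446). Mt1 did not pass without replicate 3 or without replicate 4 (edgeR adjusted p = 0.359 and 0.2925).

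For NADPH, which recharges both systems, 10 of 11 listed genes were expressed. Levels ran from transketolase Tkt at 462 ± 17.8 TPM to malic enzyme Me1 at 0.117 TPM. The list also holds enzymes, transketolase among them, that do not themselves make NADPH. All 8 partners and regulators of NRF2 were expressed, with the autophagy receptor Sqstm1, which binds KEAP1, highest at 139 ± 4.99 TPM and Bach1, a repressor of NRF2 target genes, lowest at 4.81 ± 0.801 TPM. Of 17 other thiol redox enzymes 14 were expressed, led by mitochondrial Glrx5 at 208 ± 12.4 TPM, while Sod3 was among 3 with no count. Glutathione transferases and turnover genes were expressed in 13 of 16 cases, led by Gstp1 at 268 ± 14.9 TPM, while Mgst1 had no count. All 11 genes of selenoprotein synthesis and other selenoproteins were expressed, from Selenow at 526 ± 44.0 TPM to Pstk, a kinase of selenocysteine synthesis, at 6.615 ± 0.408 TPM. In the ferroptosis list 6 of 7 were expressed, with Acsl4, which makes membranes prone to peroxidation, at 113 ± 14 TPM and Alox12 at 0.129 TPM.

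The NADPH oxidase of phagocytes, a source of superoxide, was unevenly represented, with 5 of 6 genes expressed. Its GTPase Rac2 averaged 853 ± 53.0 TPM, while the catalytic subunit Cybb was at 0.0171 to 0.214 TPM. Other iron genes were expressed in 7 of 12 cases, led by the iron chaperone Pcbp1 at 877 ± 23.2 TPM, and Heph, an iron oxidase that works with ferroportin, had no count. Of 10 genes of mitochondrial iron and iron-sulphur clusters 9 were expressed, led by Isca2 at 94.5 ± 6.67 TPM, and mitochondrial ferritin Ftmt had no count. All 11 genes of haem synthesis, export and breakdown were expressed, from Alad at 108 ± 13.0 TPM to Blvrb at 4.69 ± 1.45 TPM. Mt3 was the lowest metallothionein at 0.751 TPM.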

How the data were processed

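RNA-seq of 4 libraries of mouse regulatory T cells was analysed from gene counts. The deposited counts are whole numbers of read pairs per gene, made by the authors with featureCounts 1.4.6-p4 over exons of GENCODE M13 with reverse-strand counting, per the file headers; the build is mm10, per the labels. The aligner's version is not given in the sources used here.

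Library totals were 32648138 to 94983494 counts. TPM was computed from counts and summed exon length. Symbols came from GENCODE M21, which matched 50376 of 50600 identifiers. Variation between libraries was tested with edgeR's goodness-of-fit test against the trended dispersion, in a model with an intercept alone, with TMM scaling and filterByExpr at a minimum count of 10, and Benjamini-Hochberg adjustment over 13478 genes; the call threshold was 0.05. Gene pairs were compared on log2(TPM + 1), with a pseudocount of 1, by a two-sided exact permutation test that flips signs. Both tests were checked on simulated data. There the edgeR test called 16.4% of genes changed 1.5-fold in 1 library and 89.6% of those changed 2-fold, so small differences can be missed. Only genes above a set abundance were changed there, so these shares do not cover genes with few counts, Slc7a11 and Srxn1 among them. There was 1 group, so groups were not compared.

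The members, pairs and further lists were chosen with earlier results of these data known. All members were named, with the highest and lowest gene of each further list and those called. Slc3a2 and Mt2 were named for their roles beside these. Promoters came from RefSeq (GRCm38.p6) and UTRs from GENCODE M21. Words of 50 bases found in transcripts of genes elsewhere marked genes whose reads may be shared. Alternatives were other size factors, filters, dispersion trends and lengths, limma, and leaving out each library.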

Additional observations from a re-analysis of the deposited data

Results flagged for a closer look

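Of 58 quantities examined over the 4 libraries, 4 had a library set apart from the other 3 by more than Dixon's 95% critical value, and chance gives such a gap in about 1 in 20. Gclm was lowest in replicate 3, at 16.45 TPM against 18.07 to 18.35 TPM in the others. Txn1 was highest in replicate 4, at 1012 TPM against 902.5 to 915.6 TPM. Hmox1 was lowest in replicate 1, at 12.15 TPM against 16.43 to 16.58 TPM. The summed TPM of glutathione synthesis and recycling was highest in replicate 2, at 134.0 TPM against 120.0 to 122.0 TPM. None of the 3 genes passed edgeR's goodness-of-fit test.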

How the results depend on the processing

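No paired analysis was possible because the libraries form 1 group. The 51 genes called among all genes became 115 with limma, and leaving out 1 library gave 17 to 56, with 17 without replicate 1, 23 without replicate 3 and 33 without replicate 4; the members called were 0 under the settings tried. Gclm minus Gclc turned to 0.30 (log2) in CPM. With the principal transcript length Gss minus Gsr turned to 0.25 and Fth1 minus Ftl1 to -0.26. The differing lengths produce these changes by construction. For Fth1 and Sod2 the principal length exceeds the exon bases counted, which lowers their levels and adds to the fall of the sums that hold them. TPM is a share, so changing the lengths of all genes also rescales every level. Txn1, at 1051 bases by either length, averaged 934 TPM with the exon length and 648 TPM with the principal transcript length. Without short, mitochondrial and ribosomal RNA genes the summed TPM rose by construction, to 97.8 for the redox sensor pair, 132 for glutathione synthesis and recycling, 1087 for glutathione peroxidases, 1339 for the thioredoxin system, 1401 for peroxiredoxins, 1172 for superoxide dismutases and catalase, 3285 for iron handling, 2740 for the thioredoxin system with peroxiredoxins, 1219 for all glutathione genes and 8647 for all members. With the principal transcript length, chosen after seeing the data, the sums were 86.5 for the sensor pair, 113 for glutathione synthesis and recycling, 1048 for the thioredoxin system, 1482 for peroxiredoxins, 755 for superoxide dismutases and catalase, 110 for haem oxygenases with Nqo1, 2024 for iron handling and 6637 for all members. With 4 libraries the exact permutation test of the pairs cannot go below p = 0.12, and counts of 0 to 60 limit Slc40a1, Slc7a11 and Nqo1.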
